A study of Mus musculus with 12 samples.

Results

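The 10 members described here are the immediate early transcription factor genes Fos, Fosb, Fosl1, Fosl2, Jun, Junb, Jund, Egr1, Egr3 and Atf3. They were taken by gene symbol from a table of 20819 genes, and each symbol matched 1 gene. The values come from mouse kidney tubuloids, which are clusters of tubular epithelial cells grown in Matrigel from the renal cortex of 4 wildtype mice. All 12 libraries are from wildtype tubuloids collected 12 h after treatment began: 4 with vehicle, 4 with myoglobin, the haem protein of muscle that the design names as the injuring agent, and 4 with myoglobin and 100 nM dexamethasone, a synthetic glucocorticoid. No group with dexamethasone alone was analysed here, and the labels do not give the dose of myoglobin. The labels number the libraries of each group 1 to 4 without saying that a number stands for a mouse, so the p-values measure only the spread between these samples.

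Immediate early genes are transcribed within minutes of a stimulus from factors already present in the cell, and many of their transcripts are short-lived. FOS proteins bind DNA only as dimers with a JUN protein, JUN proteins can also pair with each other, and both kinds of dimer are called AP-1. EGR proteins bind GC-rich DNA through zinc fingers and are induced by growth factor signals through MAP kinases, and ATF3 is a stress-induced relative of AP-1 that often represses its targets. At 12 h the measurement is late relative to the classical induction of these genes.

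After 12 h of myoglobin, Fos was the single one of the 9 tested members that rose, while Jun, Egr1 and Atf3 fell. Within the Jun family the fall was in Jun, and Junb and Jund did not pass the test. Within the Fos family the rise was in Fos, and Fosl1 and Fosl2 did not pass. With dexamethasone added to myoglobin no member passed against myoglobin alone, and the same genes with Egr3 in addition differed from vehicle.

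The members lie on different chromosomes apart from Junb and Jund (mouse build mm10, coordinates as deposited). Fos (ENSMUSG00000021250) spans chromosome 12, 85473890 to 85477273, on the plus strand and Jun (ENSMUSG00000052684) chromosome 4, 95049034 to 95052222, on the minus strand. Atf3 (ENSMUSG00000026628) spans chromosome 1, 191170296 to 191218039, on the minus strand, and Egr3 (ENSMUSG00000033730) chromosome 14, 70077203 to 70082614, on the plus strand. Jun, Junb and Jund are single-exon genes. Fosl1 shares 1163 exonic bases with Ccdc85b on the other strand, Jund shares 877 with Gm11175, and Jun shares 232 with Junos. The library kit is stranded, but the labels do not say whether the counting used strand, so reads of these pairs may not be separated.

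RefSeq (GRCm38.p6) gave the sequence upstream of the start for 7 of the 10 members. The 250 bases upstream of 3 of the 4 genes that the results turn on are printed because those genes did not move alike: Fos rose, and Jun and Atf3 fell. Each is written 5′ to 3′ in the direction of the gene, for Fos at chr12:85473640-85473889 on the plus strand, for Jun at chr4:95052223-95052472 on the minus strand, and for Atf3 at chr1:191183334-191183583 on the minus strand. The RefSeq start of Atf3 lies inside the span of the deposited gene. Capitals mark TGACGT, the core of the cAMP response element, and the TATA box TATAAA in Fos, the AP-1-like site TGACATCA in Jun, and ACGTCA in Atf3, which is TGACGT on the other strand.
Fos: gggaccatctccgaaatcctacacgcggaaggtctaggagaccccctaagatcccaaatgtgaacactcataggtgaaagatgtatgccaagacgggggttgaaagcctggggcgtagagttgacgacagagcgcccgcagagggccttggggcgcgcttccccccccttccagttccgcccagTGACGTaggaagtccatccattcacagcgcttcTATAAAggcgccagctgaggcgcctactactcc
Jun: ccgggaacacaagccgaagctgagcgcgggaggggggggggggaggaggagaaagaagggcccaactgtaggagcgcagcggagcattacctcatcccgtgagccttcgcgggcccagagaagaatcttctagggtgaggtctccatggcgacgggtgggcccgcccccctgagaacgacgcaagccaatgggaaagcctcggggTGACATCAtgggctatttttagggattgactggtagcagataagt
Atf3: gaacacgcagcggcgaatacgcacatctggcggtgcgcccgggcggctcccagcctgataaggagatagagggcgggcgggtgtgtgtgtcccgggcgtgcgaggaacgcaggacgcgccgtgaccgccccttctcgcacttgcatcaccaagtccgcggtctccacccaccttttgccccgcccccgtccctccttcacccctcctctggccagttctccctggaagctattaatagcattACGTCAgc
Counted from the start, the Fos TGACGT lies at -66 to -61 and its TATAAA at -33 to -28. TGACATCA of Jun lies at -45 to -38, and ACGTCA of Atf3 at -8 to -3. Both strands were searched, and the share of 32851 RefSeq promoters of the same length was counted for each motif. The core TGACGT was in 6.47% of them, and the full cAMP response element TGACGTCA, which always holds that core, in 1.55%. The AP-1-like site TGACATCA was in 2.93%, and the AP-1 site TGANTCA in 6.75%. The EGR site GCGNGGGCG was in 4.70%, and among the 7 member promoters it was found in Fosb at -50 to -42 and in Fosl2 at -79 to -71. The TATA box was in 12.4% and the CArG box, which binds SRF, in 1.47%. The motifs were chosen after these promoters had been seen, and a match describes letters, not bound factors.

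The normalised values used here are reads of a gene scaled for the size of its library, then rounded. Per library they sum to between 5.25 and 5.73 M. Replicate 4 of myoglobin with dexamethasone stands apart: an estimated 3.26 M reads against 4.85 to 5.92 M in the other 11 libraries, and 2179 genes listed at 0 against 1051 to 1544. Without it, 3789 genes passed with myoglobin against vehicle in place of 2669, and 1279 between the treated groups in place of 1016. All 8 epithelial markers in the table were present, with Epcam at means of 976.5, 962 and 1113.5 with vehicle, myoglobin and both agents. Of 9 measured proximal tubule markers 5 had a mean under 10 over the 12 libraries, and 2 had a mean of at least 50. Near 0 were Slc34a1 at 1.75, 1.75 and 1.25 and Cubn at 2.75, 0.75 and 0.25. The 2 higher ones were Lrp2 at 233, 386.75 and 331.75 and Slc27a2 at 190.5, 206 and 226.5. The summed values of the 11 measured markers of distal nephron and collecting duct ranged from 3948 to 4869 in vehicle libraries, 3134 to 3467 in myoglobin libraries and 4120 to 4470 in those of both agents. The sums hide opposite moves: with both agents against vehicle 3 of the 11 rose and 8 fell, where 28.6% of all tested genes changed. Calb1 was at 1373.25, 1697.75 and 2106.25, and Scnn1b at 955.5, 565.5 and 568.25. Of 8 tested fibroblast and pericyte markers 2 fell with myoglobin, 3 fell with dexamethasone added and 5 fell with both agents against vehicle. Of all tested genes 9.62%, 3.90% and 14.6% were lower in these comparisons, in the same order. Of the 8 markers 0 rose in limma in any of these. Rgs5, a pericyte marker, was at 267.25, 171.5 and 127, Col1a1 was near 0 at 1.75, 3 and 3, and the sums of the list were 415 to 497, 308 to 362 and 186 to 276. Immune markers summed to 765 to 897, 853 to 985 and 888 to 1020, but they did not move alike. Cd74 was at 190.25, 387 and 378.75, while Ptprc was at 447, 342.25 and 423.25 and Cd68 at 98.75, 82.25 and 68. Of the 5 tested, 1 rose and 1 fell with myoglobin, where 18.3% of all tested genes changed. With both agents against vehicle 1 rose and 1 fell, where 28.6% of all did. The part of these markers in the changes below was not tested, and in bulk RNA fewer cells of a type and less RNA per cell cannot be told apart.

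Compared per exonic kilobase, Jund had the highest level of the 10 with vehicle (314 ± 11 normalised value per kb, SD, n = 4). JUND is the JUN protein that many resting cells hold constantly. Junb is on the minus strand, and its GENCODE model reaches beyond the deposited span at the 3′ end. The exonic length of Junb used here is that of the deposited span, 1809 bases, and its level per kb rests on that choice. Jun (176 ± 6.90 per kb) and Junb (173 ± 12.8 per kb) followed with overlapping libraries, and Fosl2, the most abundant Fos family member, came next at 120 ± 2.79 per kb. Egr1 was at 86.3 ± 10.3 per kb and Atf3 at 43.1 ± 3.64 per kb. Fos (30.0 ± 4.69 per kb) and Fosl1 (25.0 ± 6.49 per kb) overlapped, and Egr3 (5.62 ± 1.69 per kb) and Fosb (1.40 ± 0.378 per kb) were lowest. The order changed with treatment. With myoglobin, Jun (131 ± 5.05 per kb) was below every library of Junb (171 ± 11 per kb), and Fos (43.0 ± 3.87 per kb) overlapped Egr1 (43.4 ± 5.09 per kb). With both agents Jun (121 ± 3.08 per kb) overlapped Fosl2 (122 ± 6.29 per kb), and Fos (42.5 ± 7.23 per kb) lay above Egr1 (38.1 ± 3.08 per kb) in the mean with overlapping libraries.

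**Figure D1:**
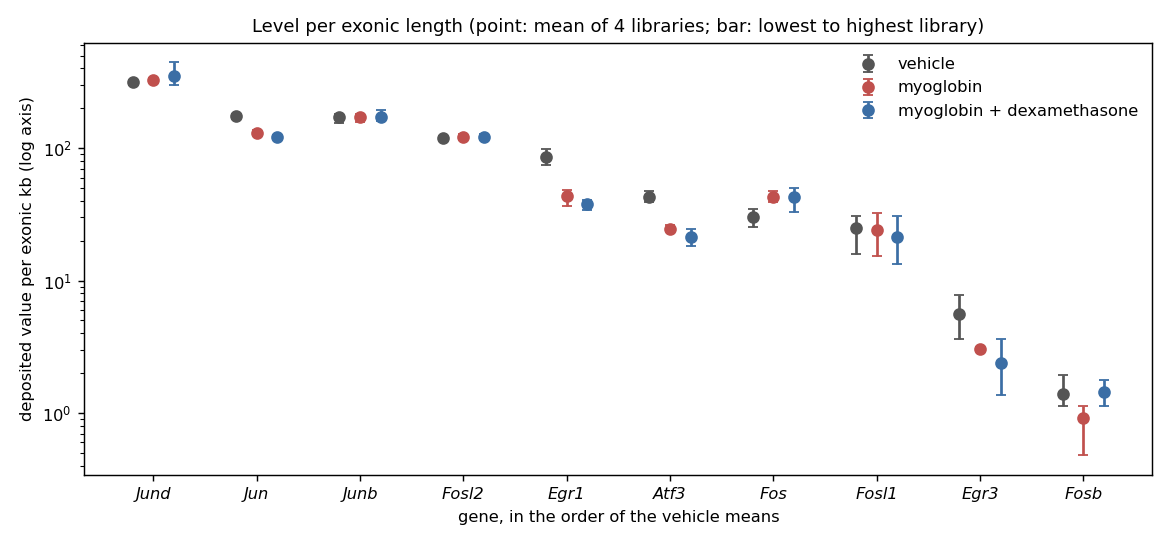
Level of each member per kilobase of exon (log axis) in the 3 treatment groups. Points are means of 4 libraries, and bars run from the lowest to the highest library. Jund is highest and Fosb lowest in the vehicle group, and the vehicle means of Egr1 and Fos, 86.3 and 30.0 per kb, close to 43.4 and 43.0 per kb with myoglobin.

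Fos encodes the founding AP-1 partner of JUN. Its normalised values with vehicle were 60, 79, 62 and 81 in replicates 1 to 4, with myoglobin 111, 107, 94 and 93, and with both agents 117, 107, 99 and 77. Every myoglobin library lay above every vehicle library, while replicate 4 with both agents lay below the highest vehicle library. Fos rose with myoglobin from 70.5 ± 11 to 101 ± 9.11 (SD, n = 4), by 0.52 ± 0.14 on the log2 scale (SE, 95% interval 0.23 to 0.82, 1.44-fold, limma adjusted p = 0.0137). Of the 9 members tested, 1 rose and 3 fell in this comparison, against 18.3% of all 14558 tested genes that changed, 8.71% higher and 9.62% lower. The adjusted p of Fos ranged from 0.00193 to 0.0506 over the 21 alternative settings. The highest value came without vehicle replicate 3, where the change was 0.47 ± 0.15 and did not pass. The 4 vehicle libraries held an estimated 66.4 to 84.9 reads of Fos each, so counting alone gives a spread of about 11.5% of the mean against the 15.6% seen.

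The other Fos family members did not pass. Fosl2, whose protein FRA-2 pairs with JUN proteins, was at 1160, 1196, 1164 and 1130 with vehicle and at 1228, 1214, 1124 and 1148 with myoglobin. These libraries overlapped, and the change of 0.02 ± 0.044 (95% interval -0.08 to 0.11) is the tightest of any Fos family member. Fosl1, whose protein FRA-1 is known for its role in invasive and injured epithelium, was at 32, 54, 63 and 54 with vehicle and at 31, 51, 47 and 66 with myoglobin. Its change of -0.06 ± 0.27 has a 95% interval of -0.63 to 0.51, which ends just below the change of Fos and covers that of Jun. Fosb was at 7, 9, 7 and 12 with vehicle, 6, 7, 3 and 7 with myoglobin, and 11, 11, 7 and 7 with both agents. It reached 10 in 3 libraries and was left out of the test by the filter on low values. Without that filter its change with myoglobin was -0.55 ± 0.32 (limma adjusted p = 0.318).

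Jun encodes c-JUN, the AP-1 subunit activated by JNK. Its values with vehicle were 572, 567, 573 and 527, with myoglobin 441, 406, 408 and 416, and with both agents 390, 376, 399 and 383. The 3 groups did not overlap, and the libraries of each lay close together. Jun fell with myoglobin from 559.75 ± 22 to 417.75 ± 16.1, by -0.42 ± 0.043 on the log2 scale (95% interval -0.51 to -0.33, 0.747-fold, limma adjusted p = 4.49e-06). The antisense gene Junos was at 84.5 ± 9.04, 52.5 ± 9.47 and 51.0 ± 11.7 in the 3 groups, and the part of shared reads was not tested.

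Junb and Jund, which encode the JUN proteins that more often restrain growth, went with neither Fos nor Jun. Junb was at 278, 323, 325 and 325 with vehicle and at 283, 307, 326 and 324 with myoglobin. The groups overlapped nearly library by library, with a change of -0.01 ± 0.071 (95% interval -0.16 to 0.14), an interval that does not reach the change of Jun. Jund was at 518, 502, 545 and 531 with vehicle and at 537, 565, 538 and 541 with myoglobin, a change of 0.06 ± 0.085 (95% interval -0.12 to 0.24). With both agents Jund was at 562, 501, 551 and 742, and the highest value is replicate 4, the library that stands apart. Against vehicle the change with both agents was 0.15 ± 0.085 with that library and 0.04 without it.

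**Figure D2:**
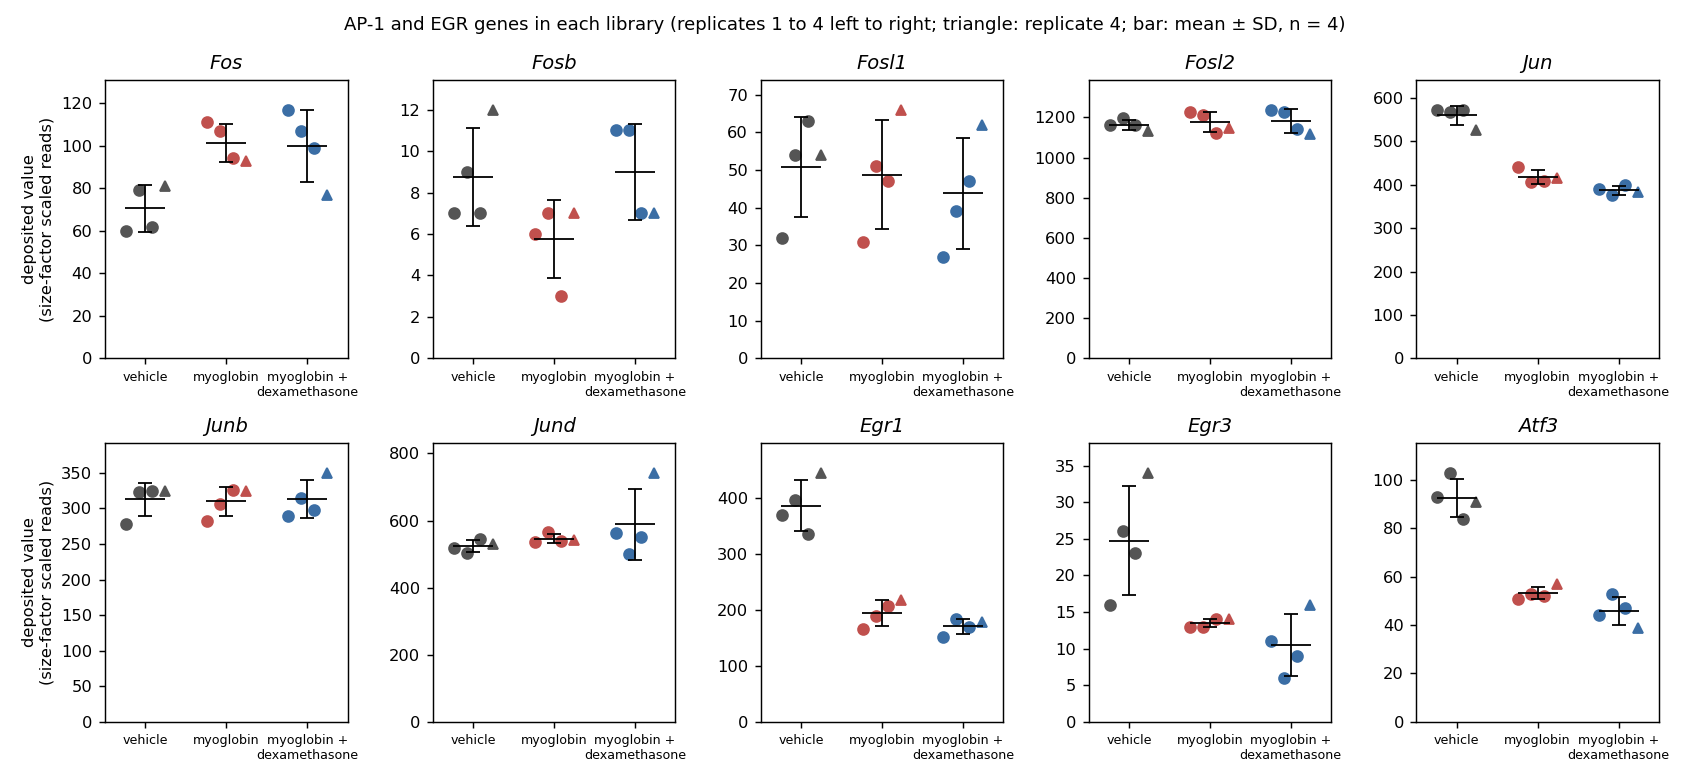
Normalised value of each member in the 12 libraries, with mean and SD (n = 4) for each group and replicate 4 marked by its own symbol. The myoglobin libraries of Jun, Egr1 and Atf3 lie below all vehicle libraries and those of Fos above, and replicate 4 with both agents has the highest Jund value (742).

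Egr1 (ENSMUSG00000038418, chromosome 18, 34859823 to 34864984, plus strand), a zinc finger factor induced by ERK signalling, showed the largest fall of the members that passed with myoglobin. Its values with vehicle were 369, 397, 336 and 445, with myoglobin 165, 189, 207 and 217, and with both agents 152, 183, 169 and 179. The lowest vehicle library was above the highest treated one. Egr1 fell with myoglobin from 386.75 ± 46.1 to 194.5 ± 22.8, by -0.99 ± 0.096 (95% interval -1.19 to -0.78, 0.504-fold, limma adjusted p = 2.50e-06). Egr3, a related factor best known in lymphocytes, nerve and muscle, was at 16, 26, 23 and 34 with vehicle, 13, 13, 14 and 14 with myoglobin, and 11, 6, 9 and 16 with both agents. The vehicle and myoglobin libraries did not overlap, but the change of -0.78 ± 0.28 (95% interval -1.37 to -0.19) had an adjusted p of 0.0633 and passed in 7 of the 21 alternative settings. Leaving out 1 library was enough: its adjusted p was 0.0272 without replicate 4 of both agents, 0.0408 without replicate 2 of that group and 0.0304 without vehicle replicate 1. In those settings 4 members fell with myoglobin in place of 3. Its libraries held an estimated 5.83 to 35.4 reads each. With Egr3 counted, 4 members lay lower without overlap and 1 higher, where 25.0% of all tested genes did not overlap (12.9% higher and 12.1% lower).

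Atf3, the stress-induced factor, was at 93, 103, 84 and 91 with vehicle, 51, 53, 52 and 57 with myoglobin, and 44, 53, 47 and 39 with both agents. The vehicle libraries lay above all 8 others. Atf3 fell with myoglobin from 92.75 ± 7.85 to 53.25 ± 2.63, by -0.79 ± 0.12 (95% interval -1.03 to -0.54, 0.580-fold, limma adjusted p = 1.63e-04). Markers of distal nephron and collecting duct moved in the same comparison, with 7 of 11 tested lower and 2 higher. Of all tested genes 9.62% were lower and 8.71% higher. The part of these markers in the falls of Jun, Egr1 and Atf3 was not tested. The 8 epithelial markers gave 0 calls in limma in this comparison, where 18.3% of all tested genes changed. The median change of the 9 tested members was -0.06, against 0.00 over all tested genes.

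**Figure D3:**
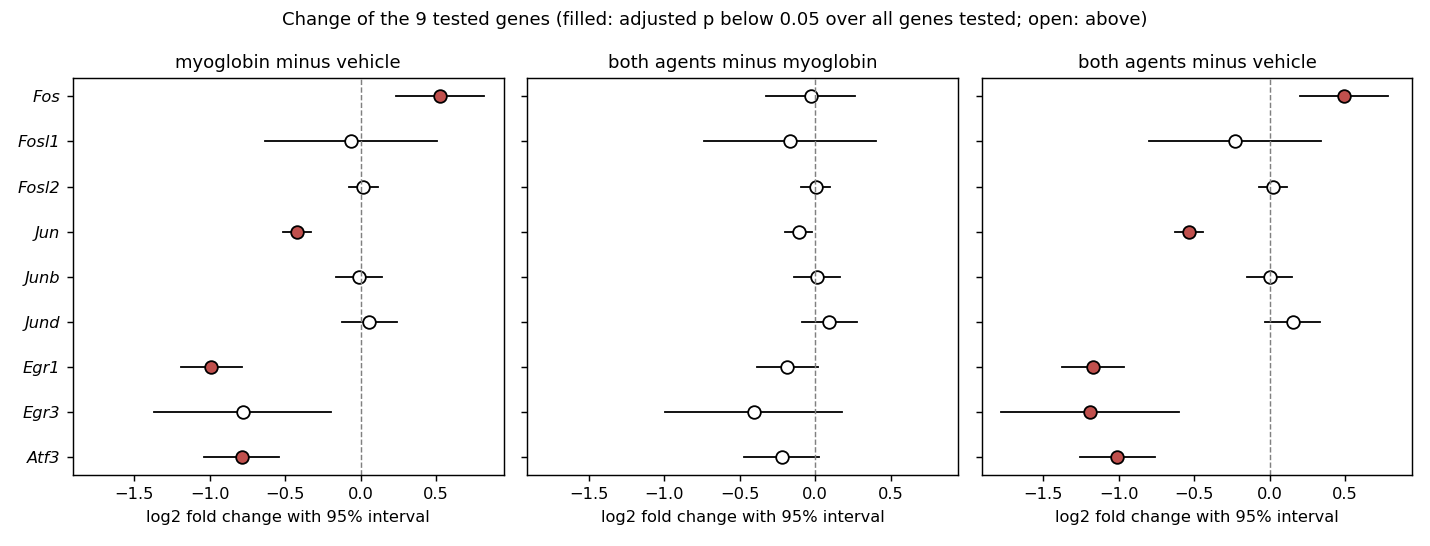
Log2 change of each tested member with its 95% interval in the 3 comparisons. With myoglobin against vehicle Fos lies above 0 (0.52) and Jun (-0.42), Atf3 (-0.79) and Egr1 (-0.99) below, while with dexamethasone added to myoglobin every interval but that of Jun covers 0.

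The divergence of Fos from Jun, Egr1 and Atf3 can be read within single libraries, where the scaling between libraries cancels. The ratio of Fos to Jun per exonic base was 0.172 ± 0.0323 with vehicle, 0.329 ± 0.0252 with myoglobin and 0.350 ± 0.0597 with both agents (SD, n = 4). The ratio of Fos to Egr1 was 0.347 ± 0.0285, 1.01 ± 0.214 and 1.13 ± 0.265 in the same order, and that of Fos to Atf3 was 0.696 ± 0.0926, 1.75 ± 0.219 and 2.01 ± 0.291. For all 3 ratios every vehicle library lay below every library of the treated groups, and the treated groups overlapped each other. Fos thus lay below Atf3 per exonic base in all 4 vehicle libraries and above it in all 8 others. Since these genes were chosen with their changes known, the ratios are given as a description without a test.

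**Figure D4:**
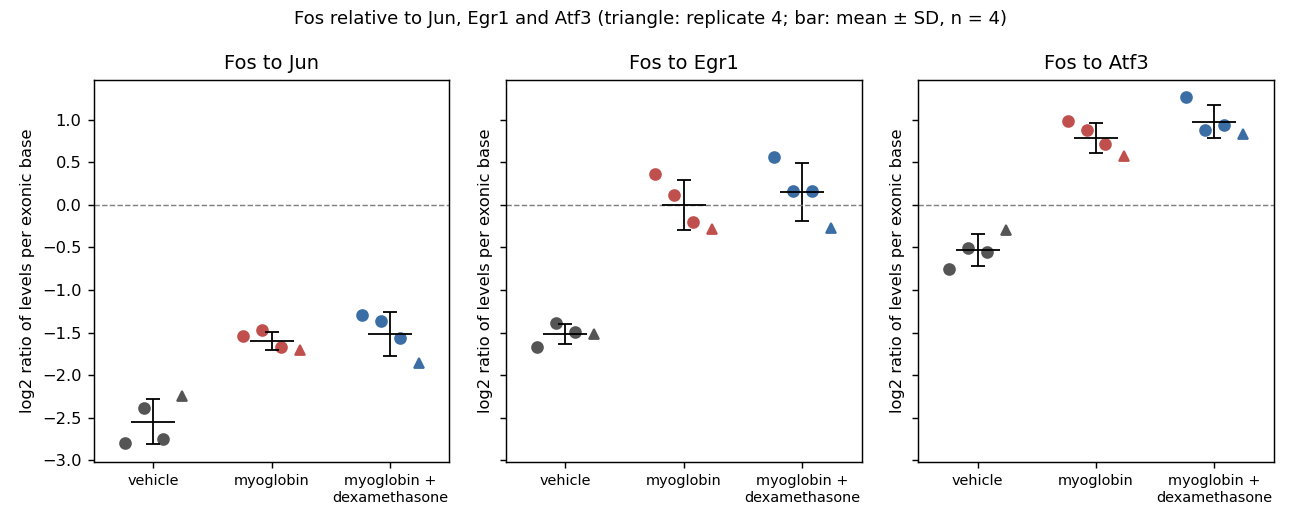
Log2 ratio of the level of Fos to Jun, Egr1 and Atf3 per exonic base in each library, with mean and SD (n = 4) per group and a dashed line at equal levels. The vehicle libraries lie lowest in each panel, and the ratio to Egr1 lies around the dashed line in both treated groups.

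The second comparison asks what dexamethasone adds in the presence of myoglobin. No member passed in limma, where 6.98% of all tested genes changed (3.08% higher and 3.90% lower), and 1 member had an unadjusted p under 0.05. The number of genes changed in this comparison was 1016, but 549 without myoglobin replicate 4 and 616 without myoglobin replicate 2. That member was Jun, which was 387 ± 9.83 with both agents against 417.75 ± 16.1 with myoglobin, a change of -0.11 ± 0.043 (95% interval -0.20 to -0.02, limma adjusted p = 0.152). It was also the member whose libraries did not overlap, where 13.2% of all tested genes did not (7.03% higher and 6.19% lower). Egr1 (-0.18 ± 0.096, 95% interval -0.39 to 0.02) and Atf3 (-0.22 ± 0.12, 95% interval -0.47 to 0.03) had overlapping libraries. For Fos the difference was -0.03 ± 0.14 with a 95% interval of -0.32 to 0.26, so 4 libraries a group do not tell apart changes within that interval. Without replicate 4 of the group with both agents it was 0.09. Fosl2 (0.00 ± 0.044) and Junb (0.01 ± 0.071) had the narrowest intervals around 0, and Fosl1 (-0.16 ± 0.27) and Egr3 (-0.41 ± 0.28) the widest. The median change of the members was -0.11 against 0.01 over all tested genes. Fosb, outside the filter, was at 5.75 ± 1.89 with myoglobin and 9 ± 2.31 with both agents, with a change of 0.59 ± 0.32 (limma adjusted p = 0.350).

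Against vehicle, the libraries with both agents showed 1 member higher and 4 lower, where 28.6% of all tested genes changed (13.9% higher and 14.6% lower). That is 2029 genes higher and 2132 lower, and with libraries scaled to equal totals it was 1565 and 2648. This comparison shares its vehicle libraries with the first. Fos rose by 0.49 ± 0.14 (95% interval 0.20 to 0.79, limma adjusted p = 0.0142), and by 0.61 ± 0.12 without replicate 4. Jun fell by -0.53 ± 0.043 (limma adjusted p = 3.58e-07), Egr1 by -1.17 ± 0.096 (limma adjusted p = 3.80e-07) and Atf3 by -1.01 ± 0.12 (limma adjusted p = 1.28e-05). Egr3 fell by -1.19 ± 0.28 (95% interval -1.78 to -0.60, limma adjusted p = 0.00471), from 24.75 ± 7.46 to 10.5 ± 4.2, although replicate 4 at 16 equals the lowest vehicle library. Jun, Egr1 and Atf3 did not overlap with vehicle, where 28.6% of all tested genes did not (15.3% higher and 13.3% lower). Fosl1, Fosl2, Junb and Jund did not pass, at -0.23 ± 0.27, 0.02 ± 0.044, 0.00 ± 0.071 and 0.15 ± 0.085. The median of the tested members was -0.23 against 0.00 over all tested genes.

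Other bZIP proteins can pair with FOS or JUN or compete for the same DNA sites. With myoglobin 7 of 21 tested bZIP partners and relatives rose and 1 fell, where 8.71% of all tested genes were higher and 9.62% lower. The list median was 0.08 against 0.00 over all tested genes. Jdp2, which encodes a JUN dimerisation partner, rose by 0.74 ± 0.11, Atf5, a stress-responsive factor, by 0.68 ± 0.058, and Mafg, a small MAF protein, by 0.29 ± 0.043. With dexamethasone added 0 of 21 passed in limma, where 6.98% of all tested genes changed. Mafg had the smallest p at 0.14 ± 0.043 (limma adjusted p = 0.0597), and 1 of the 21 rose without replicate 4 of the group with both agents. Against vehicle 9 rose and 2 fell with both agents, where 13.9% of all tested genes were higher and 14.6% lower, among them Bach2, a repressor, at -0.90 ± 0.13, and 1 fell without replicate 4.

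Genes that act upstream of Fos and Egr1 were counted in the same way. Of 8 tested genes for SRF and its ternary complex factors, which drive Fos and Egr1 after ERK activation, none passed in limma with myoglobin. None passed with dexamethasone added either. Of all tested genes 18.3% and 6.98% changed in these comparisons, in that order. Without replicate 4 of the group with both agents, 1 rose and 1 fell with myoglobin, and 1 rose and 2 fell against vehicle in place of 0 and 1. Elk4 was at 0.17 ± 0.057 with myoglobin (limma adjusted p = 0.0536), and Srf at -0.05 ± 0.073 with dexamethasone added. Of 25 MAP kinase cascade kinases 3 rose and 1 fell with myoglobin, where 18.3% of all tested genes changed. Rps6ka3 and Rps6ka1, which encode RSK kinases, rose by 0.25 ± 0.039 and 0.26 ± 0.043, and Map3k1, which acts upstream of JNK, fell by -0.29 ± 0.042. With dexamethasone added Map3k5 rose by 0.15 ± 0.041 and was the single call of that list, where 6.98% of all tested genes changed. Against vehicle 5 rose and 3 fell, where 28.6% of all did. NAB1 and NAB2 are corepressors that bind EGR proteins. Of the 5 tested EGR relatives and NAB genes 0 passed in limma with myoglobin, where 18.3% of all tested genes changed. Without replicate 4 of the group with both agents 1 fell. Nab2 was at -0.30 ± 0.10 with an adjusted p of 0.0565, and Nab1 at 0.16 ± 0.056 with dexamethasone added (limma adjusted p = 0.0991). With both agents against vehicle Nab1 rose by 0.29 ± 0.056 and Nab2 fell by -0.37 ± 0.10.

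Among 38 other tested immediate early genes 5 rose and 5 fell with myoglobin, where 18.3% of all tested genes changed, and without replicate 4 of the group with both agents 8 fell. Cebpd, an acute phase bZIP factor, rose by 1.26 ± 0.072, Nfkbia, the NF-kB inhibitor, by 0.81 ± 0.062 and Ier3, a survival gene, by 0.52 ± 0.074. The list median was -0.09. With dexamethasone added 4 rose and 2 fell, against 6.98% of all tested genes changed, with 4 falling when replicate 4 of that group was left out. Per1, a clock gene and glucocorticoid target, rose by 0.71 ± 0.065, Zfp36, which promotes decay of AU-rich transcripts, rose by 0.27 ± 0.053, and Ccn1, a matrix protein gene, fell by -0.76 ± 0.10. Against vehicle 8 rose and 7 fell, where 28.6% of all tested genes changed.

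Of 25 tested genes known as AP-1 targets 3 rose and 2 fell with myoglobin, a share near the 18.3% of all tested genes, with a list median of -0.03. Gja1, the gap junction protein connexin 43, rose by 0.30, and Tnc, the matrix protein tenascin C, fell by -2.08 ± 0.25. With dexamethasone added 2 rose and 1 fell, where 6.98% of all tested genes changed, and 3 fell without replicate 4. Mmp3, a matrix protease, fell by -1.52 ± 0.39 and Sphk1, sphingosine kinase, rose by 0.58. Against vehicle 4 rose and 4 fell, a share near the 28.6% of all tested genes. Of 11 heat shock genes, used as a general stress list, Hsph1 (0.22) and Bag3 (0.21) rose with myoglobin, where 8.71% of all tested genes were higher. None passed in limma with dexamethasone added (Hspa1b at 0.23, limma adjusted p = 0.161), where 6.98% of all tested genes changed. Against vehicle 2 rose with both agents, where 13.9% of all tested genes were higher.

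The genes whose pattern was most like a member were searched among 11162 genes by Pearson's r over the 12 libraries. These values follow the 3 groups, and the libraries are shared, so r is a description. Fos was followed most closely by Smcr8 (0.955), Slc30a7 (0.949) and Ccrl2 (0.935), and Ccrl2 was at 25.5, 70.75 and 61.25 with vehicle, myoglobin and both agents. Jun was followed by Scube3 (0.986), Fhl1 (0.986) and Fgfr1 (0.983), with Scube3 at 468.75, 169.25 and 143.25. For Egr1 the closest were Cyp24a1 (0.985), Celsr2 (0.978) and Hkdc1 (0.972), and Cyp24a1, the vitamin D hydroxylase, was at 283.5, 78.25 and 58.5. For Atf3 they were Tnc (0.983), B4galnt3 (0.979) and Cldn19 (0.979), and Tnc was at 111.25, 26.75 and 14.5.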

How the data were processed

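Messenger RNA of 12 mouse tubuloid libraries was measured, 4 in each of 3 groups taken from the labels. For the build mm10, the tools in the submitters' processing notes, given without roles, are DESeq2 1.36.0, featureCounts 2.0.3, Picard 2.27.4, STAR 2.7.10a and Trimmomatic 0.39. The deposited values are a normalised score: whole numbers that step as reads divided by a library size factor and rounded would. They are not counts, so no count test was run. The estimated reads were 3.26 to 5.92 M per library.

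The log2 of the value plus 1 was tested with limma-trend (limma 3.58.1, R 4.3.3), with 3 groups in 1 model, on the 14558 genes that reached 10 in 4 or more libraries. The two-sided p-values were adjusted by Benjamini-Hochberg over all 14558 genes within a comparison, and a gene passed below 0.05. The script was tested on simulated data. Alternatives were other pseudocounts, filters, scalings, array weights, 2 groups per fit, a replicate block and each library left out. GENCODE M21, which has the same coordinates for 20592 of the genes (98.9%), gave exonic lengths. Junb is among the genes whose coordinates differ, and its exons were trimmed to the deposited span.

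Members, gene lists and motifs were chosen with earlier results of these data known. All members are named, and from each other list up to 3 genes per comparison with the smallest p among those that passed, or the 1 with the smallest p where none did; 1 gene that this rule names is not reported here. For Fos, Jun, Egr1 and Atf3 the 3 genes with the highest r over the libraries are added, without predicted genes and those with a mean under 50.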

Additional observations from a re-analysis of the deposited data

Results flagged for a closer look

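In 3 of the 30 groups of 4 libraries checked, 1 for each member and treatment, a single library lay far from the other 3. The gap to the nearest library was divided by the range of the group and compared with Dixon's 95% critical value, which chance passes in about 1 in 20 groups. Jun had its lowest vehicle value, 527, in replicate 4, against 567 to 573 in the others (gap 0.870 of the range). Junb had its lowest vehicle value, 278, in replicate 1, against 323 to 325 (gap 0.957). Jund had its highest myoglobin value, 565, in replicate 2, against 537 to 541 (gap 0.857). All myoglobin values of Jun lay below 527, so the fall of Jun does not rest on that library.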

How the results depend on the processing

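Each change of a member was recomputed under 21 alternative settings. Of 567 such values 521 kept their direction and their side of the threshold, 38 that were not called crossed 0, 7 passed in addition and 1 no longer passed. The 1 is Fos with myoglobin without vehicle replicate 3 (0.47, adjusted p = 0.0506), which lowers the count of members that rose from 1 to 0 (range 0 to 1 over the libraries left out). The 7 are Egr3 with myoglobin, whose adjusted p under them was 0.0105 to 0.0408. Jun, Egr1 and Atf3 passed in both comparisons with vehicle under all 21 settings, and no member passed between the treated groups under any of them. With the replicate number as a block Egr3 with myoglobin had an adjusted p of 0.0352, and no other call of a member changed. Genes called with the block were 3503, 1788 and 5272 in place of 2669, 1016 and 4161. The labels do not say that a number marks a mouse, and libraries with the same number correlated in their deviations at -0.02 to 0.46 over 12 pairs, not always above 0.1, so the block stayed an alternative. That 10 of 12 correlated best with their own number is a hint from the data that the numbers may pair the samples. Array weights called 4314 genes with myoglobin and 1625 between the treated groups, where a fit of those 2 groups alone called 645. Between the treated groups 549 genes passed without myoglobin replicate 4 and 616 without myoglobin replicate 2. A scaling to equal totals gave 1565 genes higher and 2648 lower with both agents against vehicle, in place of 2029 and 2132. Depth limits Egr3 and Fosb most, with estimated reads of 35.4 or fewer per library.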

Other observations

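Fosl1 had its lowest value in replicate 1 of all 3 groups, at 32, 31 and 27, which lay -0.81, -0.78 and -0.82 on the log2 scale from the mean of the other 3 libraries. Junb also had its lowest value in replicate 1 of each group, at 278, 283 and 289. Replicate 4 with both agents deviated from the other 3 libraries of its group by 0.46 for Jund, 0.22 for Junb, 0.74 for Fosl1 and 0.85 for Egr3, and by -0.48 for Fos and -0.29 for Atf3. In 15 of 30 combinations of member and group the SD of the 4 libraries was below what counting the estimated reads gives alone. For Atf3 with myoglobin the spread was 4.94% of the mean against 13.4% from counting.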
